A study of Mus musculus with 8 samples.

Results

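The 10 genes described here encode ligands (Dll1, Dll4, Jag1 and Jag2), receptors (Notch1, Notch2 and Notch3) and targets (Hes1, Hey1 and Nrarp) of the Notch pathway. They were chosen by gene symbol, and all 10 were found among the 24346 genes that the deposited tables list. Of the listed genes, 18862 were above 0 in at least 1 library and were tested, the 10 genes among them. RNA from 8 primary cultures of mouse adipose-derived stem cells (ADSCs) was sequenced, with 1 library per mouse and culture. Mice 2, 3, 4 and 5 gave the 2D libraries, mice 1, 4, 5 and 7 gave the 3D libraries, and mice 4 and 5 are therefore present in both cultures. All mice were WT males of the BALB/c strain, 12 weeks old, and the cells came from their gonadal fat. The 3D cultures grew as organoids in Matrigel, an extract of basement membrane. The study varied the share of conditioned media with Wnt3a and R-Spondin1, and which medium and passage the sequenced 3D cultures had is not given in the sources used here. The comparison asked which genes differ in level between the 2D and the 3D cultures.

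Notch receptors are membrane proteins that are bound by ligands of the Delta-like and Jagged families on neighbouring cells. Binding and ligand endocytosis expose the receptor to proteases, and the released intracellular domain enters the nucleus, where it joins the DNA-binding protein RBPJ and a Mastermind coactivator to switch on targets such as the HES and HEY repressors. The pathway is known for directing choices between cell fates in many epithelia, including the choice between secretory or multiciliated cells and their neighbours, and for holding back the differentiation of fat cell precursors.

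Levels are given as FPKM (fragments scaled to transcript length and to the mapped fragments of the library) after quantile normalization of the 8 libraries, and values for libraries are listed in the order of mice 2, 3, 4 and 5 in 2D and of mice 1, 4, 5 and 7 in 3D. Fold changes are differences of log2(FPKM + 1), 3D minus 2D, with their standard error (SE), and on this scale changes at low FPKM come out smaller than they are. The spacing of low FPKM values gave the depth of each library, which was 14.5 M to 17.15 M fragments (median 16.775 M in 2D and 15.1 M in 3D). A gene of 2 kb at 1 FPKM thus rests on 29.0 to 34.3 fragments. The level that 3 fragments give at a gene's length is called its floor, which covers counting error only. Genes were called where limma's p, adjusted after Benjamini and Hochberg across the 18862 genes, was below 0.05, and these p-values measure the spread between the cultures of different mice.

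The labels call all 8 cultures mesenchymal stem cells, and this was checked against marker genes. The 11 stromal markers summed to 3096, 2102, 2063 and 4486 FPKM in 2D and to 8.71, 4.78, 5.44 and 8.15 FPKM in 3D. Of these, 10 were lower in 3D, and Col1a2, the most abundant in 2D, together with Col3a1 and Dcn, lay at or under the floor in the 4 3D libraries. Dcn was listed at 0 there and entered the test only through 2D. The 12 epithelial markers summed to 31.8, 176, 694 and 31.8 FPKM in 2D and to 2723, 3123, 3183 and 2905 FPKM in 3D, with Krt8 as the most abundant in 3D. Of the epithelial markers, 11 were higher in 3D, and Epcam, Esrp1, Grhl2 and Elf3 lay at or under the floor in the 4 2D libraries. Esrp1 and Elf3 were listed at 0 there and entered the test only through 3D. The 3D libraries therefore held little RNA of the stromal genes that fit their label, most of it Twist1, and much of epithelial genes, and they are called 3D libraries below. Among 7 surface markers of ADSCs, Thy1, Eng and Pdgfra were lower and Ly6a was higher in 3D. Their sum, 372, 255, 485 and 518 FPKM in 2D and 153, 1521, 2590.1 and 3180.3 FPKM in 3D, was mostly Ly6a in the 3D libraries of mice 4, 5 and 7.

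Other marker lists were also compared between the cultures. The 6 markers of multiciliated cells summed to 1.12, 0.256, 0.116 and 1.26 FPKM in 2D and to 404, 119, 164 and 224 FPKM in 3D. Of them 3 were higher in 3D, led by Foxj1, and Tekt1, 1 of the 3, entered the test only through 3D. Mcidas was listed at 0 in 7 libraries, and Ccno and Dnah5 stayed at or below 0.229 and 0.0489 FPKM in 3D. In 2D the 8 markers of pericytes and smooth muscle summed to 2227, 1451, 635 and 2527 FPKM, led by Acta2. In 3D they summed to 4.35, 7.08, 5.84 and 4.18 FPKM, led by Mcam. Of the 8, 5 were lower and 0 higher in 3D, and Des, 1 of the 5, entered the test only through 2D. Endothelial markers, of which 7 of 8 were tested and 0 passed in limma's test, summed to 1.34, 4.38, 6.82 and 1.07 FPKM in 2D and to 0.0748, 0.0551, 0.202 and 0.138 FPKM in 3D. Kdr had the highest mean of them in 2D, carried by the libraries of mice 3 and 4, and Pecam1 had the highest mean in 3D. Cdh5 and Erg were listed at 0 in the 4 3D libraries. The 6 macrophage markers summed to 21.8, 3.55, 12.6 and 2.07 FPKM in 2D and to 6.25, 42.3, 17.5 and 12.2 FPKM in 3D, where Cd68 was the most abundant and Adgre1 and Lyz2 were listed at 0. Of these 6, 1 was called higher (Cd68) and 0 lower. Of the adipocyte markers 4 of 6 were tested and 2 were lower in 3D. Their sums were 12.9, 23.5, 48.2 and 13.8 FPKM in 2D, where Lpl had the highest mean. In 3D the sums were 0.148, 0.0799, 0.513 and 0.546 FPKM, and Pparg had the highest mean.

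**Figure D1:**
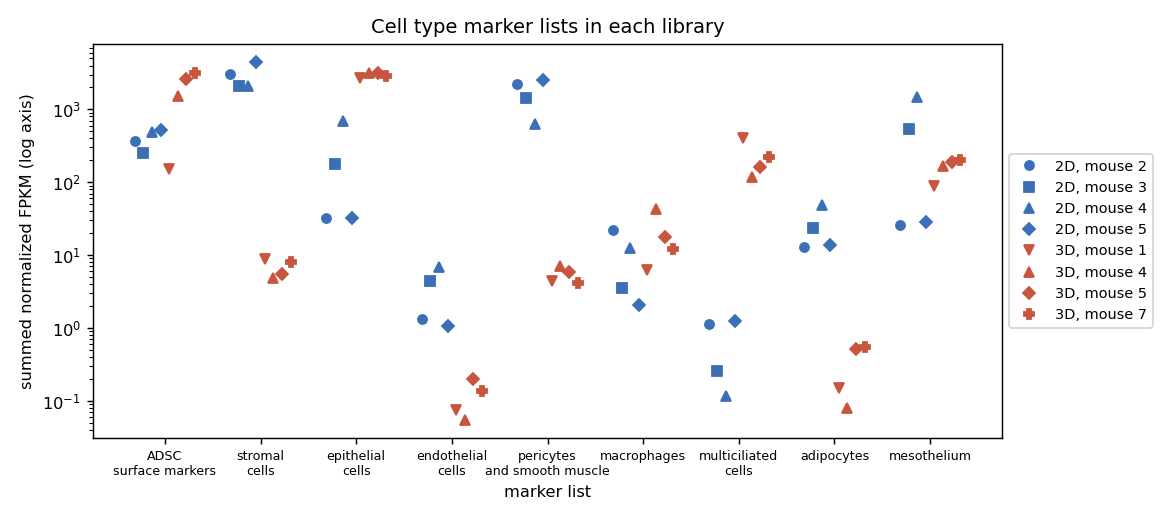
Summed normalized FPKM of each marker list (log axis) in the 4 2D (blue) and 4 3D (red) libraries, with 1 point per library and a symbol per mouse. The stromal sums of the 2D libraries lie at 2063 FPKM or more and those of the 3D libraries at 8.71 FPKM or less, and the epithelial and multiciliated sums lie the other way round.

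Some libraries stood apart within their culture. The mesothelial genes Msln, Upk3b and Wt1 were at 253, 192 and 52.6 FPKM in the 2D culture of mouse 3 and at 728, 481 and 72.5 FPKM in that of mouse 4, while the 2D libraries of mice 2 and 5 held at most 0.388 FPKM of any of them. With Krt19, which is also on the epithelial list, and with Lrrn4, the mesothelial list of 5 genes summed to 26.0, 543, 1468 and 28.4 FPKM in 2D and to 90.1, 165, 191 and 200.0 FPKM in 3D, with Msln as the most abundant in 2D and Krt19 in 3D, and Krt19 was its 1 gene called higher. The 3D library of mouse 1 had the highest Foxj1 level, 353 FPKM against 107 to 194 FPKM in the other 3D libraries, and the lowest Ly6a level of the 3D libraries, 58.6 FPKM. Its description in the labels carries a number where those of the other 3D libraries name the culture. Results on genes of the Notch pathway are therefore also given without these libraries where this ended the call of a gene or moved the change of a called gene by over 1.5 times, as a ratio of log2 fold changes or of folds. Of the marker genes called, Esrp1, Elf3 and Tekt1 were listed at 0 in the 4 2D libraries and Dcn and Des in the 4 3D libraries, so these entered the test only through the culture in which they were high. Of 35 called marker genes 13 lost their call in at least 1 of the 16 alternatives other than the block, most often Ly6a (in 10), Des (9), Krt8 and Tekt1 (8 each) and Krt19 (7), and under the block all 35 lost it. Without the 2D libraries of mice 3 and 4 the log2 fold change of Krt8 went from 5.94 to 9.09 and that of Dcn from -3.86 to -2.39, and without those of mice 2 and 5 they were 2.71 (limma's adjusted p = 0.0504) and -5.28. Ly6a changed by 3.86 (limma's adjusted p = 0.0432), or by 5.14 without the 3D library of mouse 1. These splits moved the changes of 12 and 15 of the 35 marker genes by over 1.5 times, and 0 turned direction. The part of these cell type markers in the results on Notch genes was not tested.

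Of the 10 genes, 9 were higher and 0 were lower in 3D. Over all 18862 genes, 21.2% were called higher and 20.3% lower. Notch2 was the gene that was not called. In the same 9 genes the lowest 3D library exceeded the highest 2D library, which was so for 21.6% of all genes. Dll4 was above 0 only in 3D libraries, so it entered the test through the culture in which it was high. The median log2 fold change of the 10 genes was 2.04, also with Dll4 placed at its lower bound, against 0.00 over all genes. Within mouse 4 and within mouse 5 the 3D library lay above the 2D library in all 10 genes, which held for 47.7% and 45.8% of all genes. With the mouse as a block, which rests on mice 4 and 5 and leaves 1 residual degree of freedom, limma called 0 of the 10 genes, with adjusted p-values from 0.111 to 0.272, and 7 had unadjusted p-values under 0.05. Over all genes the block also gave 0 calls, with 5216 unadjusted p-values below 0.05. Without the 2D libraries of mice 3 and 4, 6 of the 10 genes were called higher, beside 3560 genes higher and 4206 lower over all, and without those of mice 2 and 5, 7 were, beside 2970 higher and 3326 lower. In bulk RNA, fewer cells of a type and less RNA per cell cannot be told apart, which holds for all the differences that follow.

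**Figure D2:**
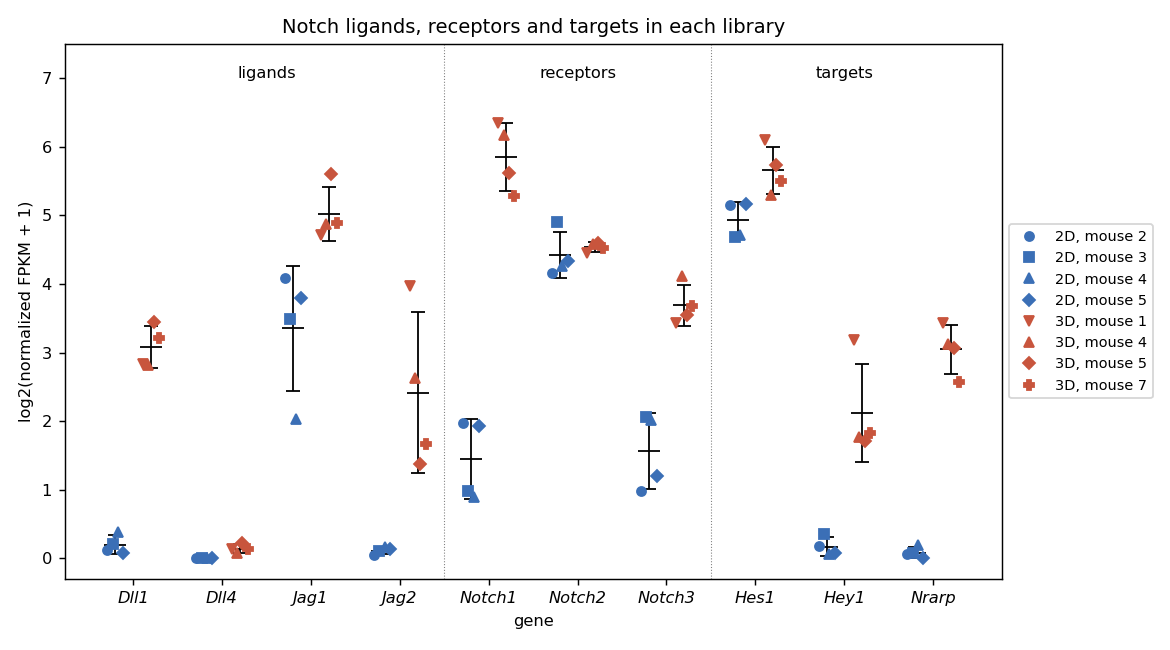
Levels of the 10 Notch genes as log2(normalized FPKM + 1) in each of the 4 2D (blue) and 4 3D (red) libraries, with a symbol per mouse, and the mean and SD per culture in black. In every gene except Notch2, the 4 red points lie above the 4 blue points.

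Promoter windows were searched for motifs of the pathway's DNA-binding proteins because 9 of the 10 genes moved in the same direction. Of the 10 genes, 8 were found in the RefSeq promoter table (build GRCm38.p6), with 9 windows in all since Dll1 had a pair of starts, and Hes1 and Hey1 were not matched. The 250 bases before each start were searched on both strands for 4 motifs. These were the RBPJ core TGGGAA, the E-box known for HEY proteins, CACGTG, the class C site known for HES proteins, CACGCG, and the N-box, CACNAG. The RBPJ core was in 21.6% of all 32851 windows, the E-box in 6.02%, the class C site in 7.62% and the N-box in 36.7%. In the 9 windows the RBPJ core was found in 0, the E-box in 1 (Nrarp), the class C site in 4 (Dll1, Dll4, Jag1 and Notch2) and the N-box in 5 (Dll4, Notch1, Notch2, Notch3 and Nrarp). The windows below are shown for a target, a receptor and a ligand that rose in 3D, chosen after their values were seen, each 5′ to 3′ on the strand of its gene and ending before the first exon that GENCODE M21 lists there. Capitals mark the motifs on either strand. They lie at chr2:25180508-25180757 (plus strand) for Nrarp, chr2:26503825-26504072 (minus strand, inside the span of a longer Notch1 transcript) for Notch1 and chr2:137116645-137116770 (minus strand) for Jag1.
Nrarp: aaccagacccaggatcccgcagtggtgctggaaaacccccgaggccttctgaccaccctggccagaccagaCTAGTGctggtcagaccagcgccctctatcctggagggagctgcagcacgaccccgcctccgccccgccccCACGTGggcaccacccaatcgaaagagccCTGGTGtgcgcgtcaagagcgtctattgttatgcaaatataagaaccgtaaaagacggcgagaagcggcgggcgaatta
Notch1: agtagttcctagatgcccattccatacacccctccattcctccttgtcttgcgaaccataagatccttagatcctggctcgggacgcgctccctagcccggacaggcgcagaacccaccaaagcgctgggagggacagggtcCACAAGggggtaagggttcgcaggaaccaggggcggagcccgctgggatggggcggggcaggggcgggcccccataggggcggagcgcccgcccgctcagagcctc
Jag1: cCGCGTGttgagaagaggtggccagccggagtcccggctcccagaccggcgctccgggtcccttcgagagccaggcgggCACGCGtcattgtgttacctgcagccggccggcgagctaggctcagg
Distances are counted from the RefSeq start, which follows the last base shown directly for Nrarp and after a further 2 and 124 bases, not shown, for Notch1 and Jag1. The E-box of Nrarp begins 108 bases before the start, between N-boxes that begin 179 and 79 bases before it. Notch1 has a single N-box, 108 bases before its RefSeq start, and Jag1 has class C sites 249 and 171 bases before its RefSeq start. A match is a string of letters in a reference sequence from another strain than BALB/c, and binding at these places was not measured. The motif counts were not tested, and the shares over all windows were not matched for G and C content. That content was 61.2% for Nrarp, 66.1% for Notch1 and 70.6% for Jag1 in the parts shown.

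All 4 ligands were higher in 3D. Dll1, a Delta-like ligand that activates Notch receptors on adjacent cells (chr17:15367354-15376872, minus strand), was at 0.0849, 0.155, 0.306 and 0.0592 FPKM in 2D and at 6.12, 6.05, 9.88 and 8.29 FPKM in 3D. Its lowest 3D library lay far above its highest 2D library, that of mouse 4. Mean Dll1 was 50.1-fold higher in 3D, with 1 of the 2D libraries at or under the floor. The log2 fold change was 2.88 (SE 0.18, limma's adjusted p = 1.9e-05), or 5.00 with a pseudocount of 0.1, with an adjusted p of 0.126 under the block. Dll4, the Delta-like ligand best known from blood vessels (chr2:119325784-119335962, plus strand), was listed at 0 in the 4 2D libraries and at 0.0923, 0.0514, 0.171 and 0.0983 FPKM in 3D. All 3D values were low and close to the floor of up to 0.0552 FPKM, and the deposited 3D mean over the highest 2D floor gave a level at least 2.41-fold higher in 3D. In limma's test the adjusted p of Dll4 was 0.0111 for a log2 fold change of 0.14 (SE 0.03, or 0.99 with a pseudocount of 0.1), 0.0618 without the 2D libraries of mice 3 and 4, 0.0630 without those of mice 2 and 5, 0.222 with only mice 4 and 5 and 0.272 under the block. All alternatives gave adjusted p-values in limma from 0.00314 to 0.272.

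Jag1, the ligand with the highest level in both cultures (chr2:137081456-137116644, minus strand), was at 16.0, 10.3, 3.09 and 12.8 FPKM in 2D and at 25.1, 28.3, 47.4 and 28.7 FPKM in 3D. The 2D library of mouse 4 was the lowest and the 3D library of mouse 5 the highest, and the groups did not overlap. Mean Jag1 was 3.07-fold higher in 3D, a log2 fold change of 1.67 (SE 0.44, limma's adjusted p = 0.0186). Leaving out single libraries moved this change between 1.21, without the 2D library of mouse 4, and 1.88, and its adjusted p in limma between 0.00795 and 0.0499. The change was 1.05 (limma's adjusted p = 0.0239) without the 2D libraries of mice 3 and 4, and its call was lost with only mice 4 and 5 (2.32, limma's adjusted p = 0.110) and under the block (2.32, 0.138). Jag2, the second ligand of the Jagged family (chr12:112907819-112929776, minus strand), was at 0.0281, 0.0791, 0.122 and 0.0959 FPKM in 2D and at 14.7, 5.21, 1.59 and 2.17 FPKM in 3D. Its 3D libraries were all high but spread widely, with mouse 1 at the top and mouse 5 at the bottom. Mean Jag2 was 72.9-fold higher in 3D, also with 1 2D library at or under the floor. The 3D library of mouse 1 gave most of the 3D mean, and within mice 4 and 5 the folds were 42.8 and 16.6. The log2 fold change of Jag2 was 2.30 (SE 0.53, limma's adjusted p = 0.00981), or 4.55 with a pseudocount of 0.1 and 1.75 (adjusted p = 0.00322 in limma) without the 3D library of mouse 1. Its call was lost without the 2D libraries of mice 3 and 4 and without those of mice 2 and 5 (limma's adjusted p = 0.0521 and 0.0583, where all alternatives gave 8.0e-04 to 0.182), with only mice 4 and 5 (0.0815) and under the block (0.182).

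Summed over Dll1, Dll3, Dll4, Jag1 and Jag2, ligand FPKM came to 16.1, 10.6, 3.52 and 12.99 in 2D and to 46.1, 39.6, 59.0 and 39.3 in 3D. Jag1 made up between 87.8% and 99.3% of this sum in 2D and between 54.5% and 80.3% in 3D. The share of Dll1 lay between 0.456% and 8.70% in 2D and between 13.3% and 21.1% in 3D. Jag1 thus held the largest share in each of the 8 libraries, and the highest Dll1 share of a 2D library, in mouse 4, was that of the library with the least Jag1. For Jag2 the shares of the cultures overlapped, with up to 3.45% in 2D and between 2.70% and 31.9% in 3D.

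Of the 3 receptors, Notch1 and Notch3 were higher in 3D. Notch1, the receptor best known from T cells and many epithelia (chr2:26457903-26516663, minus strand), was at 2.94, 0.970, 0.862 and 2.82 FPKM in 2D and at 80.2, 71.1, 47.9 and 37.8 FPKM in 3D. Within 2D the libraries of mice 2 and 5 lay above those of mice 3 and 4, and all were far below the 3D libraries. Mean Notch1 was 31.2-fold higher in 3D, a log2 fold change of 4.40 (SE 0.35, limma's adjusted p = 5.7e-05). It was 5.03 with a pseudocount of 0.1, 3.83 without the 2D libraries of mice 3 and 4 and 4.74 without those of mice 2 and 5, and the adjusted p under the block was 0.124. Whether the counting used the strand is not given in the sources used here, and Notch1 overlaps a microRNA gene and noncoding genes of the opposite strand. Dll1, Dll4, Notch3 and Nrarp also overlap genes of the opposite strand.

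Notch2, a receptor that is expressed in many tissues (chr3:98013527-98150361, plus strand), was at 16.9, 29.0, 18.3 and 19.2 FPKM in 2D and at 20.8, 22.9, 23.3 and 22.1 FPKM in 3D. The 3D libraries lay within the range of the 2D libraries, which the library of mouse 3 widened. Its log2 fold change of 0.12 (95% confidence interval -0.25 to 0.50, limma's adjusted p = 0.572) was smaller than the spread, and it was 0.00 on the values as deposited, where its sign turned, and -0.05 without the 2D libraries of mice 2 and 5. Without the 2D library of mouse 3 it was 0.28 and passed (limma's adjusted p = 0.0348, the lowest of the alternatives, of which the highest was 0.992). Notch3, the receptor known from mural cells of vessels (chr17:32120820-32166852, minus strand), was at 0.982, 3.18, 3.03 and 1.31 FPKM in 2D and at 9.77, 16.3, 10.7 and 11.7 FPKM in 3D. In 2D the libraries of mice 3 and 4 were the higher ones, the reverse of Notch1, and the cultures did not overlap. Mean Notch3 was 5.70-fold higher in 3D, a log2 fold change of 2.12 (SE 0.30, limma's adjusted p = 9.5e-04), and its adjusted p was 0.114 under the block. Of the 8 markers of pericytes and smooth muscle, Rgs5, Cspg4, Myh11, Des and Kcnj8 lay at or under the floor in the 4 3D libraries. Mcam was at 3.59 to 6.29 FPKM there and held most of the list's sum, Acta2 was above its floor, and Abcc9 overlapped between the cultures.

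The sum of the 4 receptors, Notch4 included, was 25.0, 34.2, 24.1 and 28.2 FPKM in 2D and 111, 110.4, 82.0 and 71.7 FPKM in 3D. Notch2 held between 67.4% and 84.8% of it in 2D and between 18.8% and 30.8% in 3D. Notch1 held between 2.83% and 11.8% in 2D and between 52.7% and 72.3% in 3D. Notch2 was therefore the leading receptor in every 2D library and Notch1 in every 3D library. The share of Notch3 overlapped between the cultures, with 3.93% to 12.6% in 2D and 8.82% to 16.4% in 3D.

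**Figure D3:**
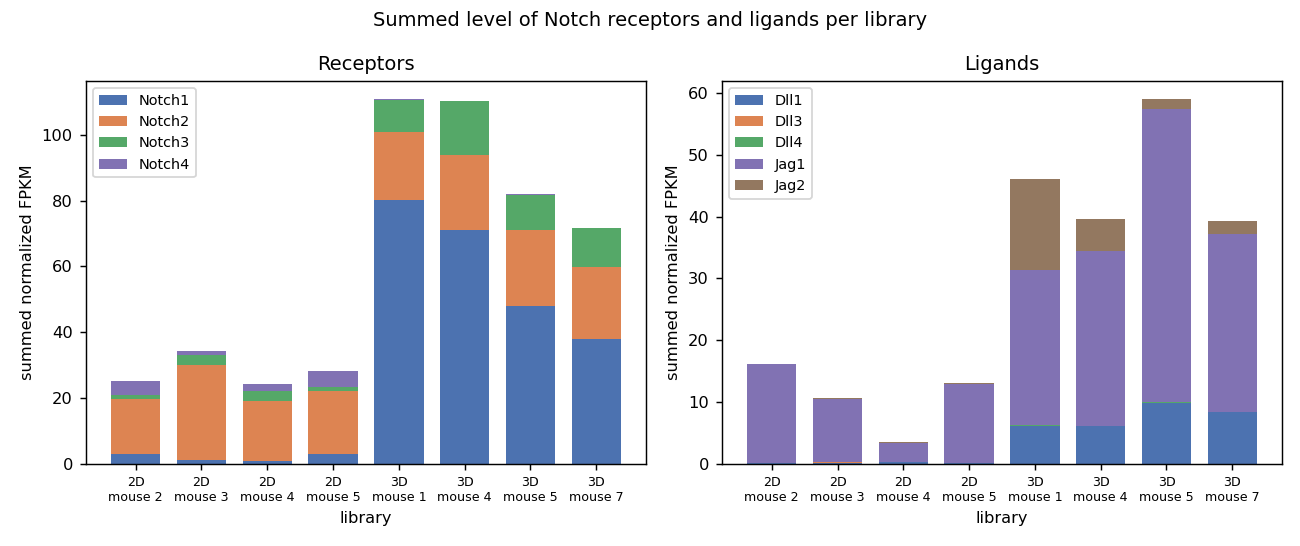
Stacked bars of the normalized FPKM of 4 Notch receptors (left) and 5 ligands (right) in each library, 1 bar per library and without error bars since each is a single value. Receptor sums lie between 24.1 and 34.2 FPKM in 2D and between 71.7 and 111 FPKM in 3D, with Notch1 as the largest part in 3D, and Jag1 is the largest part of the ligand sum in all 8 libraries.

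The 3 targets among the 10 genes were higher in 3D, by amounts that differed between them. Other HES and HEY genes, given further below, did not all rise. Nrarp, an ankyrin repeat protein that is induced by Notch and dampens its signal (chr2:25180758-25183339, plus strand), was at 0.0402, 0.0509, 0.141 and 0 FPKM in 2D and at 9.78, 7.71, 7.37 and 4.94 FPKM in 3D. In 2D the libraries of mice 2, 3 and 5 lay at or under the floor, and the lowest 3D library, that of mouse 7, lay far above all of them. The ratio of its means was 129, with a 2D mean that counting error makes uncertain. The log2 fold change of Nrarp was 2.97 (SE 0.19, limma's adjusted p = 2.1e-05), or 5.61 with a pseudocount of 0.1, with 0.111 as the adjusted p under the block. Its window with the E-box is printed above. Hey1, a repressor of the HEY family (chr3:8663359-8667256, minus strand), was at 0.136, 0.283, 0.0411 and 0.0493 FPKM in 2D and at 8.04, 2.39, 2.26 and 2.54 FPKM in 3D. The 3D library of mouse 1 stood far above the other 3D libraries, which in turn were all above the 2D libraries. Mean Hey1 was 29.9-fold higher in 3D, with most of the 3D mean from the library of mouse 1 and 2 of the 2D libraries at or under the floor. For Hey1 the log2 fold change was 1.95 (SE 0.33, limma's adjusted p = 0.00241), or 4.01 with a pseudocount of 0.1, and without that library it was 1.57 (limma's adjusted p = 4.5e-05, the lowest of the alternatives, of which the highest was 0.111 under the block).

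Hes1, a repressor of the HES family that is expressed in many cell types also without Notch signals (chr16:30064384-30067796, plus strand), was at 34.4, 24.7, 25.2 and 34.9 FPKM in 2D and at 67.5, 38.5, 52.0 and 44.4 FPKM in 3D. The groups did not overlap, but the lowest 3D library, that of mouse 4, lay close to the 2D libraries of mice 2 and 5. On the values as deposited they overlapped, with that library at 34.2 FPKM and those of mice 2 and 5 in 2D at 38.5 and 39.6 FPKM. Mean Hes1 was 1.70-fold higher in 3D, a log2 fold change of 0.73 (SE 0.20, limma's adjusted p = 0.0195). Its call was lost on the values as deposited, with a change of 0.42 (limma's adjusted p = 0.142), and without the 2D libraries of mice 3 and 4, with a change of 0.50 (limma's adjusted p = 0.132). It was also lost without the 2D library of mouse 3 (limma's adjusted p = 0.0501), without the 3D library of mouse 5 (0.0508), with only mice 4 and 5 (0.205) and under the block (0.134), in a range of 0.0137 to 0.205.

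In 2D the order of the mean levels was Hes1, Notch2, Jag1, Notch3, Notch1, Dll1, Hey1, Jag2, Nrarp and Dll4. Neighbours in this order overlapped between libraries except at the steps from Notch2 to Jag1 and from Notch1 to Dll1. In 3D the order was Notch1, Hes1, Jag1, Notch2, Notch3, Dll1, Nrarp, Jag2, Hey1 and Dll4, and the neighbours were apart at the steps from Jag1 to Notch2, from Notch2 to Notch3 and from Hey1 to Dll4. FPKM is a level per length, so the genes can be compared with each other within a library.

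For each target, the 88 other tested genes of the pathway were compared by the root mean square difference of log2(FPKM + 1), centred on each gene's mean over the 8 libraries. Nrarp was most like Dll1 (0.359 on the log2 scale) and Bhlhe41 (0.428). Hey1 was most like Dtx1 (0.387) and Jag2 (0.436), which are also highest in the 3D library of mouse 1. The genes most like Hes1 were Furin (0.201) and Tle1 (0.203), of which Tle1 rose by 0.92 on the log2 scale (limma's adjusted p = 0.00136) and lost its call with only mice 4 and 5 (0.0646). The level of Furin was 29.9 ± 9.52 FPKM (SD, n = 4) in 2D and 40.8 ± 6.70 FPKM (SD, n = 4) in 3D, and limma's adjusted p was 0.138. Its log2 fold change of 0.48 was 0.83 without the 2D libraries of mice 2 and 5 (limma's adjusted p = 0.0118) and 0.09 without those of mice 3 and 4 (0.666).

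A further 81 genes of the pathway, grouped by role, were followed in the same fit. Hes5 and Helt were listed at 0 in every library, and of the 79 tested genes 29 were higher, 15 were lower and 35 were not called. Of the 79, 2 entered the test only through 3D and 3 only through 2D, and of these 5 only Pdgfrb was called. Of all genes tested, 21.2% were higher and 20.3% lower. The median log2 fold change of the 79 genes was 0.06. With the block, limma called 0 of the 79 genes, and 32 had unadjusted p-values under 0.05. Among 6 other receptors and ligands, 2 were lower in 3D and 0 higher. Notch4, a receptor known from endothelium, was at 4.23, 1.07, 1.96 and 4.88 FPKM in 2D and at 0.106, 0.135, 0.126 and 0.149 FPKM in 3D, a log2 fold change of -1.71 (SE 0.32, limma's adjusted p = 0.00399, or 0.0542 with only mice 4 and 5 and 0.155 under the block), and of -2.32 without the 2D libraries of mice 3 and 4. The 2D libraries of mice 3 and 4 were the lower ones, and the log2 difference of Notch4 was -1.38 within mouse 4 and -2.38 within mouse 5. Notch4 was thus the receptor that fell while Notch1 and Notch3 rose. Dlk2, a relative of the ligands that lacks their receptor-activating domain, fell from 1.10 ± 0.528 to 0.152 ± 0.107 FPKM (SD, n = 4), and limma's adjusted p was 0.00671, or 0.122 with only mice 4 and 5 and 0.284 under the block. Its log2 fold change was -0.84, and -0.54 without the 2D libraries of mice 3 and 4. Its relative Dlk1, known for holding back fat cell formation, was at 1.49, 0.181, 0.231 and 1.83 FPKM in 2D and at or under the floor in the 4 3D libraries, at least 16.3-fold lower by the deposited 2D mean and the 3D floor, with a limma adjusted p of 0.0557. The 2D libraries of mice 2 and 5 carried most of this mean, and the log2 fold change of -0.83 was -1.42 without those of mice 3 and 4 and -0.285 without those of mice 2 and 5. Dlk1 passed without the 2D library of mouse 3 (limma's adjusted p = 0.0242), without that of mouse 4 (0.0306), without the 2D libraries of mice 3 and 4 (5.0e-05) or of mice 2 and 5 (0.00179), with a pseudocount of 0.1 (0.00909) and on the values as deposited (0.0405), and it did not pass in the other alternatives (up to 0.334). Dll3 stayed at or under the floor in all 8 libraries, and Dner and Egfl7 overlapped between the cultures with limma adjusted p-values of 0.332 and 0.850. Egfl7 shares its span with Agpat2 and microRNA genes, which makes its values uncertain.

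Of 5 genes listed for receptor glycosylation, 2 were lower in RNA level and 0 higher. Lfng, a fringe enzyme that adds sugars to Notch receptors and shifts their response between ligand families, was at 7.49, 10.4, 23.2 and 6.54 FPKM in 2D and at 2.58, 0.432, 0.208 and 0.242 FPKM in 3D. All 3D libraries lay below the 2D libraries, and that of mouse 1 was the highest of them. Its log2 fold change was -2.79 (SE 0.48, limma's adjusted p = 0.00267), or -3.18 without the 3D library of mouse 1, and the adjusted p was 0.139 under the block. Of the summed FPKM of the 3 fringe genes, Lfng held between 68.7% and 87.7% in 2D and between 7.07% and 52.4% in 3D, and Rfng held most of the rest. Rfng itself was at 3.00 ± 0.442 FPKM (SD, n = 4) in 2D and 2.74 ± 0.291 FPKM (SD, n = 4) in 3D (limma's adjusted p = 0.625), with a change that turned positive on the values as deposited. Mfng was above 0 in a single library, the 3D library of mouse 4. Pofut1, which adds the fucose that fringe enzymes extend, fell from 15.5 ± 1.66 to 7.56 ± 0.840 FPKM (SD, n = 4), and limma's adjusted p was 4.9e-04, or 0.0619 with only mice 4 and 5 and 0.183 under the block. Poglut1, which adds glucose, had a log2 fold change of 0.37 and a limma adjusted p of 0.0784.

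Of 7 genes listed for ligand endocytosis, by which the sending cell pulls on the receptor, 5 were higher in RNA level and 0 lower. Neurl3, a ubiquitin ligase of the Neuralized family, was at 0.115, 0.0774, 0.211 and 0.0421 FPKM in 2D and at 21.5, 13.5, 24.4 and 16.6 FPKM in 3D. All 4 3D libraries were high, and the log2 fold change was 4.14 (SE 0.20, limma's adjusted p = 4.5e-06). Its relatives Neurl1a and Neurl1b changed by 1.37 and 1.26 on the log2 scale (limma's adjusted p = 0.0215 and 0.00746). The call of Neurl1a was lost without the 2D library of mouse 4 (limma's adjusted p = 0.0527) and without the 3D library of mouse 7 (0.0538), without the 2D libraries of mice 3 and 4 (0.102) or of mice 2 and 5 (0.0834) and with only mice 4 and 5 (0.205). That of Neurl1b was lost with only mice 4 and 5 (limma's adjusted p = 0.0513). Mib2, a Mindbomb ubiquitin ligase, rose from 7.19 ± 0.957 to 13.7 ± 2.31 FPKM (SD, n = 4, limma's adjusted p = 0.00261, or 0.113 with only mice 4 and 5), while Mib1 was at 26.8 ± 1.02 and 26.7 ± 2.24 FPKM (SD, n = 4) with a limma adjusted p of 0.922. The endocytic adaptor Epn1 changed by 0.30 (limma's adjusted p = 0.00859) and had a negative change on the values as deposited. Its call was also lost without the 2D libraries of mice 3 and 4 (limma's adjusted p = 0.0501) and with only mice 4 and 5 (0.162). Epn2 had a limma adjusted p of 0.949. The block gave limma adjusted p-values of 0.114 for Neurl3, 0.201 for Neurl1a, 0.179 for Neurl1b, 0.250 for Mib2 and 0.199 for Epn1.

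Of the 10 genes of the cleavage proteases, 4 were higher and 1 was lower. Aph1c, a subunit of gamma-secretase, rose by 1.02 on the log2 scale (SE 0.15, limma's adjusted p = 0.00140) and shares near-identical sequence with Aph1b, so its value is uncertain. Its adjusted p in limma was 0.138 under the block. The nuclear complex and its coactivators counted 4 higher and 2 lower of 9. Rbpj, the DNA-binding partner of the receptors' intracellular domain, was at 37.9, 30.2, 36.1 and 32.5 FPKM in 2D and at 13.6, 20.7, 18.7 and 13.6 FPKM in 3D. Every 3D library was below every 2D library, with a log2 fold change of -1.01 (SE 0.15, limma's adjusted p = 0.00151, or 0.124 under the block). In contrast, Maml3, a Mastermind coactivator, rose from 0.805 ± 0.249 to 6.42 ± 0.883 FPKM (SD, n = 4), and limma's adjusted p was 6.4e-05. Among 13 corepressors, 5 were higher and 0 lower, and Spen, a corepressor that binds RBPJ, rose by 1.31 on the log2 scale (limma's adjusted p = 3.1e-04). For Maml3 and Spen the block gave limma adjusted p-values of 0.120 and 0.145.

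Inhibitors and genes of receptor turnover were higher in 5 and lower in 3 of 11. Numbl, a relative of the Notch inhibitor Numb, was at 36.1, 21.5, 22.5 and 27.7 FPKM in 2D and at 1.49, 3.34, 3.92 and 4.60 FPKM in 3D. The groups were far apart, with a log2 fold change of -2.72 (SE 0.28, limma's adjusted p = 2.1e-04). The Deltex genes, a family of ubiquitin ligases listed here with the pathway, moved in different directions. Dtx1, itself described as a Notch target, was listed at 0 in 3 of the 4 2D libraries and was at 5.69, 2.24, 2.86 and 0.617 FPKM in 3D, a log2 fold change of 1.76 (SE 0.38, limma's adjusted p = 0.00752). Dtx3 rose by 1.83 and Dtx2 fell by 1.14 on the log2 scale (limma's adjusted p = 2.8e-04 and 9.2e-04). Dtx3l was at 7.28 FPKM in the 3D library of mouse 1, within the 2D range, and the other 3D libraries lay between 33.7 and 51.0 FPKM. The change was 2.01 on the log2 scale (limma's adjusted p = 0.0229), or 2.64 (adjusted p = 2.6e-04 in limma) without that library and 2.78 with only mice 4 and 5. It lost its call without any 1 of 5 other libraries, the 2D libraries of mice 2 and 4 and the 3D libraries of mice 4, 5 and 7, with limma adjusted p-values of 0.0537 to 0.0616, and without the 2D libraries of mice 3 and 4 (0.0891) or of mice 2 and 5 (0.108). Dtx3l also shares its span with Parp9. Under the block limma's adjusted p was 0.111 for Numbl and Dtx1, 0.1496 for Dtx2, 0.125 for Dtx3 and 0.133 for Dtx3l.

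Other HES and HEY genes, with the related Bhlhe40 and Bhlhe41, were higher in 2 (Hes6, Bhlhe41) and lower in 1 (Hes7) of 8. Mean Hes6 was 15.0 FPKM in 2D and 24.5 FPKM in 3D (limma's adjusted p = 0.0364, or 0.239 under the block). Mean Hes7 was 0.338 and 0.145 FPKM with overlapping libraries (limma's adjusted p = 0.0222, or 0.493 under the block). Hey2 was not called (0.723 and 0.0760 FPKM, limma's adjusted p = 0.0598), with every 2D above every 3D library. Heyl was not called either (limma's adjusted p = 0.581). Bhlhe41, a repressor related to these families, was at 2.08, 1.67, 1.45 and 2.56 FPKM in 2D and at 13.9, 25.6, 13.7 and 10.8 FPKM in 3D. The 3D libraries were all above the 2D libraries, with a log2 fold change of 2.48 (SE 0.26, limma's adjusted p = 2.5e-04). Among 14 other genes that have been described as Notch targets in some cell type, 5 were higher and 5 lower. Of these, Notch4, Dtx1, Hey2 and Heyl also stand in the lists above and count in both, but once among the 79 genes. Sox9, a transcription factor of many epithelial progenitors, rose from 4.41 ± 2.13 to 88.0 ± 46.8 FPKM (SD, n = 4), with the 3D library of mouse 1 as the highest at 158 FPKM, and limma's adjusted p was 1.7e-04. Gata3, a transcription factor of T cells and several epithelia, rose by 3.90 on the log2 scale (SE 0.17, limma's adjusted p = 2.7e-06). Some of the genes that fell are also typical of mesenchymal cells. Pdgfrb, a growth factor receptor of mural and stromal cells, was at 33.3, 14.3, 35.6 and 44.4 FPKM in 2D and listed at 0 in the 4 3D libraries, at least 932-fold lower by the deposited 2D mean and the 3D floor (limma's adjusted p = 2.2e-05, in a test it entered only through 2D). Snai2, a repressor of epithelial genes, fell by 3.58 (SE 0.32, limma's adjusted p = 1.1e-04) and Acta2, smooth muscle actin, by 9.82 on the log2 scale (SE 0.41, limma's adjusted p = 2.1e-06). The change of Acta2 was -10.45 without the 2D libraries of mice 3 and 4 and -8.98 without those of mice 2 and 5, and Acta2 is also on the list of pericytes and smooth muscle. With the block, limma's adjusted p was 0.152 for Bhlhe41, 0.118 for Sox9, 0.128 for Snai2 and 0.111 for Gata3, Acta2 and Pdgfrb. With a pseudocount of 0.1, which gives low levels more weight, the log2 fold changes were -3.55 for Notch4, -2.77 for Dlk1, -2.24 for Dlk2, -4.08 for Lfng, 6.52 for Neurl3, 2.28 for Neurl1a, 2.13 for Neurl1b, 2.35 for Aph1c and 2.88 for Maml3. They were 4.43 for Dtx1, 4.76 for Gata3, -5.09 for Snai2 and -11.00 for Acta2.

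**Figure D4:**
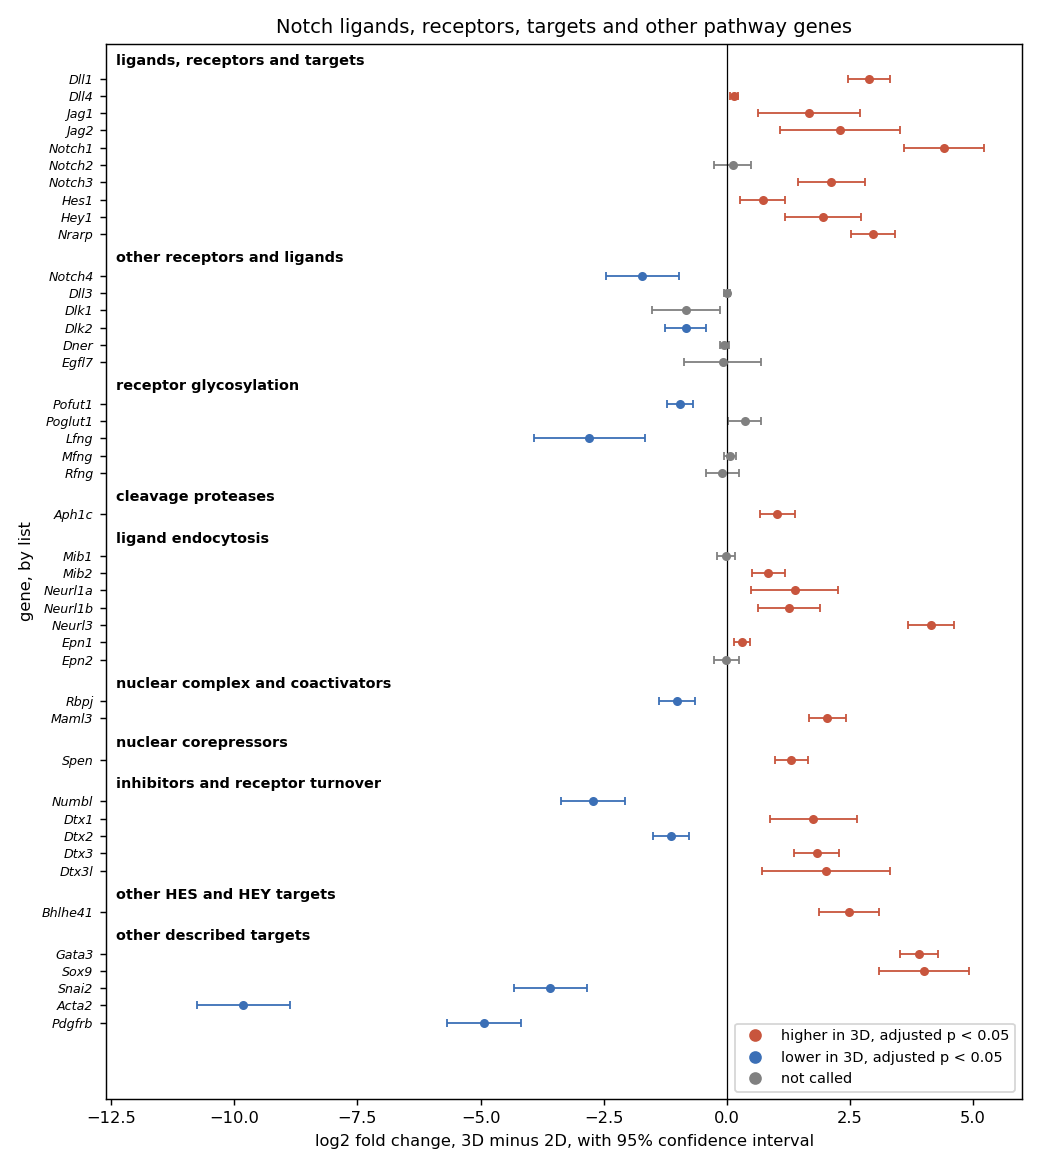
Log2 fold changes on the log2(FPKM + 1) scale, 3D minus 2D, with 95% confidence intervals from limma over 4 libraries per culture, for the 10 Notch genes and the named genes of each pathway list. Red and blue mark genes with an adjusted p below 0.05 that were higher or lower in 3D and grey those not called. Notch1 lies at 4.40 and Notch2 at 0.12, low genes come out smaller on this scale, and on the values as deposited the sign of Notch2, Dll3, Egfl7, Rfng and Epn1 turns.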

How the data were processed

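The authors used FastQC for read quality, FASTX_Trimmer and BBMap for trimming, TopHat for mapping to mm10 and Cufflinks for FPKM per gene, and their methods name quantile normalization with EdgeR as a later step. The deposited values are FPKM, 1 table per library, and had not yet been quantile normalized, since their upper quartiles lay between 15.4 and 16.4 FPKM and their maxima between 93611 and 419827 FPKM. Quantile normalization and the fit (log2(FPKM + 1), culture as the only factor, empirical Bayes with an intensity trend) used limma 3.58.1 in R 4.3.3, and tables were made with Python 3.11.15 and pandas 2.3.3. The fit was tested once on simulated data, where it called 167 of 200 changed genes, gave all 200 the right direction and also called 21 unchanged genes, which were 11.2% of its calls and more than the threshold of 0.05 implies. The 5484 genes at 0 in every library were left out.

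Depth was estimated from 875 genes with a single annotated transcript, of at least 3000 bases. Lengths came from GENCODE M21, which matched 23310 listed genes (95.7%) by symbol. Between 70.2% and 82.9% of low values per library lay within 0.15 of a whole number of fragments, and 3 fragments on 1 kb stand for 0.175 to 0.207 FPKM.

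The 10 genes, the pathway lists and the marker lists were chosen with earlier results of these data known. Named were the 10 genes, every gene of a pathway list of 7 or fewer, of longer lists the genes called with a log2 fold change of at least 1 in size (at most the 3 largest in each direction), and the 2 pathway genes most like each target. Of marker lists the counts, sums and most abundant gene were given, and other marker genes were named after their values were seen. Hes6, Hes7, Hey2 and Heyl were also added after their values were seen. They do not count among the named genes elsewhere and are given without the alternatives other than the block.

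The sample titles give mice 4 and 5 in both cultures, so these libraries are paired by mouse. The main fit left this pairing out, and it entered through the alternatives below. Deviations from the culture means correlated at -0.05 (mouse 4) and -0.11 (mouse 5) over 12577 genes, and limma's random effect gave -0.04. As alternatives, the fit was repeated without quantile normalization, without the intensity trend, over genes averaging 1 FPKM or more, with 0.1 as pseudocount, with a block or a random effect for the mouse, on mice 4 and 5 alone, without each library in turn and, chosen after seeing the data, without the 2D libraries of mice 3 and 4 or of mice 2 and 5.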

Additional observations from a re-analysis of the deposited data

Results flagged for a closer look

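Values of 45 named genes were compared within each culture on the log2(FPKM + 1) scale. In 8 of 87 groups of 4 libraries, 1 library lay so far from the other 3 that its gap to the nearest, as a share of the whole range, passed Dixon's 95% critical value. In 3 of these groups a single library was above 0, where the value is passed by construction. Of the other groups 5 of 84 (5.95%) passed it, and chance does this in about 1 in 20 groups. For Hey1 the 3D library of mouse 1 was at 8.04 FPKM and the others between 2.26 and 2.54 FPKM. For Lfng the same library was at 2.58 FPKM and the others between 0.208 and 0.432 FPKM. In 2D, Gata3 was at 1.49 FPKM in mouse 2 and at 0.785 to 0.841 FPKM in the other mice. Neurl1a, also in 2D, was at 0.216 FPKM in mouse 4 and at 0.594 to 0.644 FPKM in the others. In 3D, Acta2 was at 0.389 FPKM in mouse 7 and at 0.688 to 0.748 FPKM in the other mice. The 3 single values above 0 were Dll3 (2D, mouse 3) at 0.0616 FPKM, Mfng (3D, mouse 4) at 0.167 FPKM and Dtx1 (2D, mouse 4) at 0.0337 FPKM. The cause of these differences was not tested.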

How the results depend on the processing

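Of 45 named genes, 45 kept direction and side of the threshold without the intensity trend and with the mouse as a random effect, 44 with a pseudocount of 0.1, and all 39 that passed the filter on a mean of at least 1 FPKM. Between 39 and 45 did so when 1 library was left out, 38 on the values as deposited, 35 without the 2D libraries of mice 3 and 4 and 37 without those of mice 2 and 5, both chosen after seeing the data. With only mice 4 and 5, 28 of the 45 did so, 12 lost their call and 5 turned direction, and with the replicate block (mouse) 6 did so, 34 lost their call and 5 turned direction. With the replicate block (mouse), 0 genes were higher and 0 lower, with 0 of the 10 Notch genes and 0 and 0 of the other pathway genes, since 1 residual degree of freedom remains. With only mice 4 and 5, 1788 genes were higher and 1432 lower, with 5 of the 10 Notch genes higher and 17 of the other pathway genes higher and 7 lower, from fewer libraries. Of the 35 called marker genes, 12 lost their call with only mice 4 and 5, 3 and 7 without the 2D libraries of mice 3 and 4 or of mice 2 and 5, 1 to 5 when 1 library was left out, 3 on the values as deposited and 1 without the intensity trend, and a pseudocount of 0.1 moved the changes of 29 by over 1.5 times.

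Some genes that were not called, and Epn1, turned direction. On the values as deposited the log2 fold changes were -0.0021 for Notch2, 0.0030 for Dll3, 0.20 for Egfl7, 0.20 for Rfng and -0.0749 for Epn1. With the replicate block they were 0.0201 for Dll3, 0.0421 for Dner, 0.12 for Egfl7, 0.0265 for Mib1 and 0.16 for Epn2, and with only mice 4 and 5 they were 0.0197 for Dll3, 0.0425 for Dner, 0.12 for Egfl7, 0.0251 for Mib1 and 0.16 for Epn2. Without the 2D libraries of mice 3 and 4 they were 0.0146 for Dll3, 0.0204 for Mib1 and 0.0784 for Epn2, and without those of mice 2 and 5 they were -0.0481 for Notch2 and 0.30 for Egfl7. When 1 library was left out they ran from -0.31 to 0.17 for Egfl7, from -0.0136 to 0.0161 for Dll3, from -0.0445 to 0.0396 for Mib1 and from -0.0864 to 0.0622 for Epn2, and the cause was not tested.

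The cultures differ in cell type markers as well as in matrix and medium, which cannot be told apart here. With 4 libraries per culture and 2 mice in both, the within-mouse comparison has little power. Depth limits statements on Dll4, Dll3, Mfng, Heyl and the 2D levels of Nrarp, Hey1, Dll1, Jag2, Neurl3 and Dtx1, which rest on few fragments. The same holds for the 3D levels of Hes7 and Hey2.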
